A study of Homo sapiens with 4 samples.

Results

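Oncogenic transcription factors of T-cell acute lymphoblastic leukemia (T-ALL), together with factors they act with, were examined in IGF2BP2 binding data of Jurkat cells. The set holds 10 genes chosen by name: TAL1, LYL1, TCF3, TCF12, LMO1, LMO2, GATA3, MYB, NKX2-1 and TLX1. A sense peak was one whose largest share lay in coding sequence (CDS), a UTR, a noncoding exon or an intron, and it was given to the gene whose Ensembl identifier the list names. The 10 genes held 129 of 74237 sense peaks in iRIP replicate 1 and 147 of 77288 in replicate 2. Jurkat is a leukemic T-cell line, and the labels give no treatment or genetic change. In iRIP-seq, cells are crosslinked with UV light and the RNA that precipitates with a protein is sequenced. The group IGF2BP2_IP had 2 libraries made with an anti-IGF2BP2 antibody, and the 2 libraries of the group IGF2BP2_input were not analysed here. The study describes the libraries as independent replicate experiments, but neither it nor the labels say whether the cultures were separate, so the spread between them may be technical.

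TAL1 and LYL1 encode basic helix-loop-helix (bHLH) factors that are silent in maturing T cells and are switched on by rearrangement or mutation in T-ALL. They bind DNA together with the E proteins, which TCF3 (E2A) and TCF12 (HEB) encode, and the LIM-only proteins LMO1 and LMO2 bridge these dimers to GATA3 and other factors. MYB acts with the TAL1 complex, while TLX1 and NKX2-1 are homeobox genes switched on in other subtypes of the disease. IGF2BP2 binds mRNA through RRM and KH domains, reads N6-methyladenosine (m6A) and can stabilise the transcripts it binds.

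The first exons of TCF12 and MYB carried peaks, and they are the only peak positions whose bases could be read, since the RefSeq table used here holds bases from 250 before to 50 after each start site. Each stretch below has 30 bases of the plus strand (GRCh38.p14), written 5′ to 3′, and is shown because a peak reached into it. Capitals mark GGA, the first letters of the GGAC core in which m6A is often placed. GGA was searched on the strand of the gene only, and 50.9% of the 35116 windows of all genes hold it in their last 30 bases.
TCF12, under a replicate 2 peak of 13 tags, chr15:56918871-56918900: taatcggggtggttGGAtgcGGAgacgggg
TCF12, under a replicate 1 peak of 5 tags, chr15:56918664-56918693: gccgcctcagcgaaaaaaatgtccgcctga
MYB, at the start of a 5′ UTR peak of both replicates, chr6:135181328-135181357: ttcctcctcctccttctcctcctcctccgt
GGA occurred 2 times in the first of these stretches and 0 times in the others, and only 7 bases of the MYB stretch lie inside its peak. Neither marked GGA is followed by C, so no printed stretch holds the GGAC core.

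Of the 10 genes, 7 had a sense peak in replicate 1, where 53.7% of the 20056 protein-coding genes of the RefSeq table had one, and 7 in replicate 2, against 52.2%. They were the same genes in both lists (70.0%, against 43.4% of all protein-coding genes): TAL1, TCF3, TCF12, LMO1, LMO2, GATA3 and MYB. Genes whose identifier could not be matched to a symbol count as lacking a peak in the shares over all genes, which lowers those shares. An exonic peak was present in 5 of the 10 genes in each replicate, against 29.9% and 31.7% of all genes, and in both replicates for 5 against 21.9%. These were TAL1, TCF3, TCF12, GATA3 and MYB. The height of a peak is its number of stacked reads, called tags, in a 50 nt bin, averaged over the bins of a longer peak. Heights of 10 tags or more were reached by 2 genes in replicate 1 and by 3 in replicate 2, where 4.28% and 9.85% of all genes reached them. TCF3 and MYB did so in both libraries, against 3.75% of all genes, and TCF12 in replicate 2 alone. A peak is called shared here if it overlapped, by at least 1 bp and with the same orientation, a peak of the other library. A shared peak was present in 4 of the 10 genes (TCF3, TCF12, GATA3 and MYB), against 14.9% of all genes.

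The lists begin at 4 tags in replicate 1 and at 5 tags in replicate 2, and 74.3% and 62.6% of all peaks had this lowest height. The numbers of reads behind the lists are not known, so heights of the libraries are set side by side without scaling. Peaks that also appeared in an input library had been removed by the authors, and RNA levels were not analysed here, so peak numbers are not relative to expression. Of 8 T-cell markers, 6 had a sense peak in both replicates, against 43.4% of all protein-coding genes. CD28 had one in replicate 2 only, and LAT could not be resolved by position. With so few genes, and peaks that are not RNA levels, marker counts cannot settle the label of the cells. Among markers of other blood cells, CD79A, MS4A1 and MPO had 1 peak each, in replicate 2, at 5 tags, and CD14, LYZ, HBB and HBA1 had none in either replicate.

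**Figure D1:**
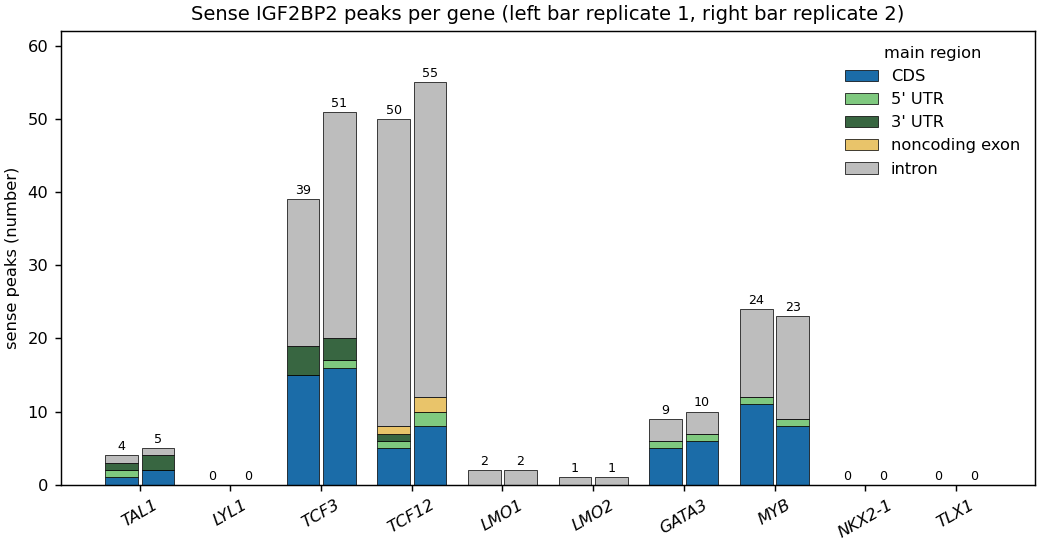
Number of sense peaks (vertical axis) on each of the 10 genes, with replicate 1 as the left bar and replicate 2 as the right bar, and colours for the main region of each peak. TCF12 had 50 and 55 peaks, mostly in introns, and TCF3 had 39 and 51, while LYL1, NKX2-1 and TLX1 had 0 in both.

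TAL1, the bHLH oncogene of the set, had few and low peaks. The gene lies on the minus strand of chromosome 1 (47216290 to 47232335, RefSeq, GRCh38.p14). In replicate 1 it had 4 sense peaks: 1 in the 3′ UTR, 1 in CDS and 1 in an intron at 4 tags each, and 1 in the 5′ UTR at 47229300 to 47229400 with 5.50 tags. In replicate 2 it had 5: 2 in the 3′ UTR, 1 in CDS and 1 in an intron at 5 tags each, and 1 in CDS at 47219800 to 47219850 with 6 tags. Exonic peaks therefore made up 3 of 4 and 4 of 5, but none of the sites was shared. To set the counts against genes of like size, all protein-coding genes were ranked by length and cut into 10 classes. Genes without a matched identifier count as having 0 peaks in these classes too. This can raise the shares of genes with fewer peaks and lower the medians, here and for the genes below. In the class of TAL1, 88.7% of genes had fewer peaks in replicate 1 and 88.0% in replicate 2, and the median gene had 0.

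LYL1, the paralog of TAL1, is a short gene (3.83 kb, chromosome 19, 13099033 to 13102858) and had no sense peak in either library. The single peak with its identifier was antisense, with 5 tags in replicate 1. The median gene of its length class also had 0 peaks.

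TCF3 encodes E12 and E47, E proteins that TAL1 needs as partners on DNA. The gene lies on the minus strand of chromosome 19 (1609292 to 1652615). It had 39 sense peaks in replicate 1 and 51 in replicate 2, a mean of 45.0 ± 8.49 (SD, n = 2). Among the 2005 genes of its length class, 1999 had fewer peaks in replicate 1 and 2000 in replicate 2, and the median gene had 1. Its density was 9.0 and 11.8 peaks per 10 kb. The main region was CDS for 15 and 16 peaks, the 3′ UTR for 4 and 3, the 5′ UTR for 0 and 1, and an intron for 20 and 31.

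The highest TCF3 peak stood at the same place in both libraries, a bin wholly in CDS at 1623950 to 1624000, with 26 tags in replicate 1 and 42 in replicate 2. The next pairs lay at 1621100 to 1621150, with 21 and 23 tags, and at 1621800 to 1621850, with 18 in each. Both count as intronic by their largest share, but 0.36 and 0.26 of their length is CDS, so each spans an edge of a coding exon. All 11 peaks that reached 10 tags in replicate 1 touched CDS, as did 13 of 14 in replicate 2. Among all sense peaks of that height, 84.6% in replicate 1 and 85.3% in replicate 2 touched CDS. The exception, wholly in an intron at 1644950 to 1645000 with 11 tags, was not shared. In replicate 1 the highest peak wholly inside an intron had 6 tags.

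Shared TCF3 peaks numbered 22 of 39 in replicate 1 (56.4%, 95% Wilson interval 41.0% to 70.7%) and 22 of 51 in replicate 2 (43.1%, 30.5% to 56.7%). Peaks touching CDS were shared in 17 of 19 cases in replicate 1 and in 17 of 20 in replicate 2, and peaks wholly inside an intron in 4 of 16 and 4 of 25. Beyond the midpoint of the gene lay 24 of 39 peaks in replicate 1 and 29 of 51 in replicate 2, and a lean to either side was not tested. A peak across the end of the CDS and the start of the 3′ UTR, at 1611700 to 1611750, had 5 tags in replicate 1 and 14 in replicate 2, a ratio of 2.80.

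TCF12 encodes HEB, the other E protein that pairs with TAL1 in these leukemias. It is the longest of the 10 genes (373 kb, plus strand of chromosome 15, 56918090 to 57291310) and had the most peaks, 50 in replicate 1 and 55 in replicate 2 (mean 52.5 ± 3.54, SD, n = 2). Per 10 kb this came to 1.34 and 1.47 peaks, far below TCF3. In its length class 98.2% of genes had fewer peaks in each replicate, and the median gene had 6 and 5. Introns held 42 and 43 of its peaks, and 35 and 28 peaks had the lowest height of their list. Shared peaks numbered 5 of 50 in replicate 1 (10.0%, 4.35% to 21.4%) and 5 of 55 in replicate 2 (9.09%, 3.95% to 19.6%).

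All 5 shared TCF12 peaks had identical positions in the libraries. At 56921000 to 56921050, with 0.5 of the bin in CDS, replicate 1 had 6 tags and replicate 2 had 14. In an intron at 56925250 to 56925300 the heights were 7 and 6 tags. The remaining 3 pairs, of which 2 were in introns and 1 in a noncoding exon, had 4 tags in replicate 1 and 6, 7 and 8 in replicate 2.

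The libraries parted at the 5′ end of TCF12. The highest peak of replicate 2 lay in the 5′ UTR at 56919850 to 56919900 with 41 tags, and it was not shared. A second 5′ UTR peak of replicate 2, at 56918850 to 56918900 with 13 tags, was not shared either, and its sequence is the first one printed above. Replicate 1 had its 5′ UTR peak at 56918650 to 56918750, with 5 tags. No TCF12 peak of replicate 1 exceeded 7 tags, a height reached at 56925250 and, without a partner, at 56969550. Of the 6 peaks that reached 10 tags in replicate 2, 1 was shared, with 6 tags in replicate 1 at the same position. TCF12 heights of 10 tags or more therefore rest on replicate 2 alone.

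The LIM-only genes LMO1 and LMO2, oncogenes that bridge TAL1 to its partners, had intron peaks alone. LMO1 (minus strand of chromosome 11, 8224309 to 8268787) had 2 peaks in each library, at 4 tags in replicate 1 and at 5 tags in replicate 2, the lowest height of each list. LMO2 (chromosome 11, 33858576 to 33892076) had 1 peak in each, with 4 tags in replicate 1 and 6 tags in replicate 2. None was shared. In their length classes, 54.0% and 55.7% of genes had fewer peaks than LMO1, and 42.2% and 44.0% had fewer than LMO2, which put both near the middle.

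GATA3, a zinc finger factor needed for T-cell commitment, lies on the plus strand of chromosome 10 (8045333 to 8075198). It had 9 sense peaks in replicate 1 and 10 in replicate 2 (mean 9.50 ± 0.707, SD, n = 2), and 93.0% and 91.7% of genes in its length class had fewer. Exonic peaks made up 6 of 9 and 7 of 10. The highest had 7.67 tags in replicate 1, in CDS at 8058300 to 8058450, and 8.25 tags in replicate 2, in the 5′ UTR at 8055400 to 8055600, and neither was shared. The 3 shared peaks all lay in CDS and were low. Their heights were 5 and 5.50 tags for the one ending at 8055900, 5 and 7 at 8069450 to 8069500, and 4 and 5 at 8058800 to 8058850.

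MYB encodes c-Myb, a factor of blood progenitors that cooperates with TAL1. The gene lies on the plus strand of chromosome 6 (135181308 to 135219172). It had 24 sense peaks in replicate 1 and 23 in replicate 2 (mean 23.5 ± 0.707, SD, n = 2), and 99.0% and 97.9% of genes in its length class had fewer. CDS was the main region of 11 and 8 peaks, introns of 12 and 14, and the 5′ UTR of 1 and 1, with none in the 3′ UTR. Shared peaks numbered 11 of 24 in replicate 1 (45.8%, 27.9% to 64.9%) and 10 of 23 in replicate 2 (43.5%, 25.6% to 63.2%).

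Ranked by the lower of both heights, the first 3 shared MYB peaks lay mainly in CDS. The one starting at 135185900 had 16 tags in replicate 1 and 17.3 in replicate 2, the one starting at 135192300 had 13 and 15.7, and the one at 135198900 to 135198950 had 13 and 17. The highest single value was 25 tags in replicate 2, at 135187800 to 135187850, where replicate 1 had 11. That bin has 0.34 of its length in CDS and counts as intronic. All 5 peaks that reached 10 tags in replicate 1 touched CDS, as did 8 of 9 in replicate 2. The exception lay wholly in an intron at 135183600 to 135183650 and was shared, with 6 tags in replicate 1 and 12 in replicate 2. The 5′ UTR peak, starting at 135181350 in both libraries, had 7.50 and 10.0 tags.

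**Figure D2:**
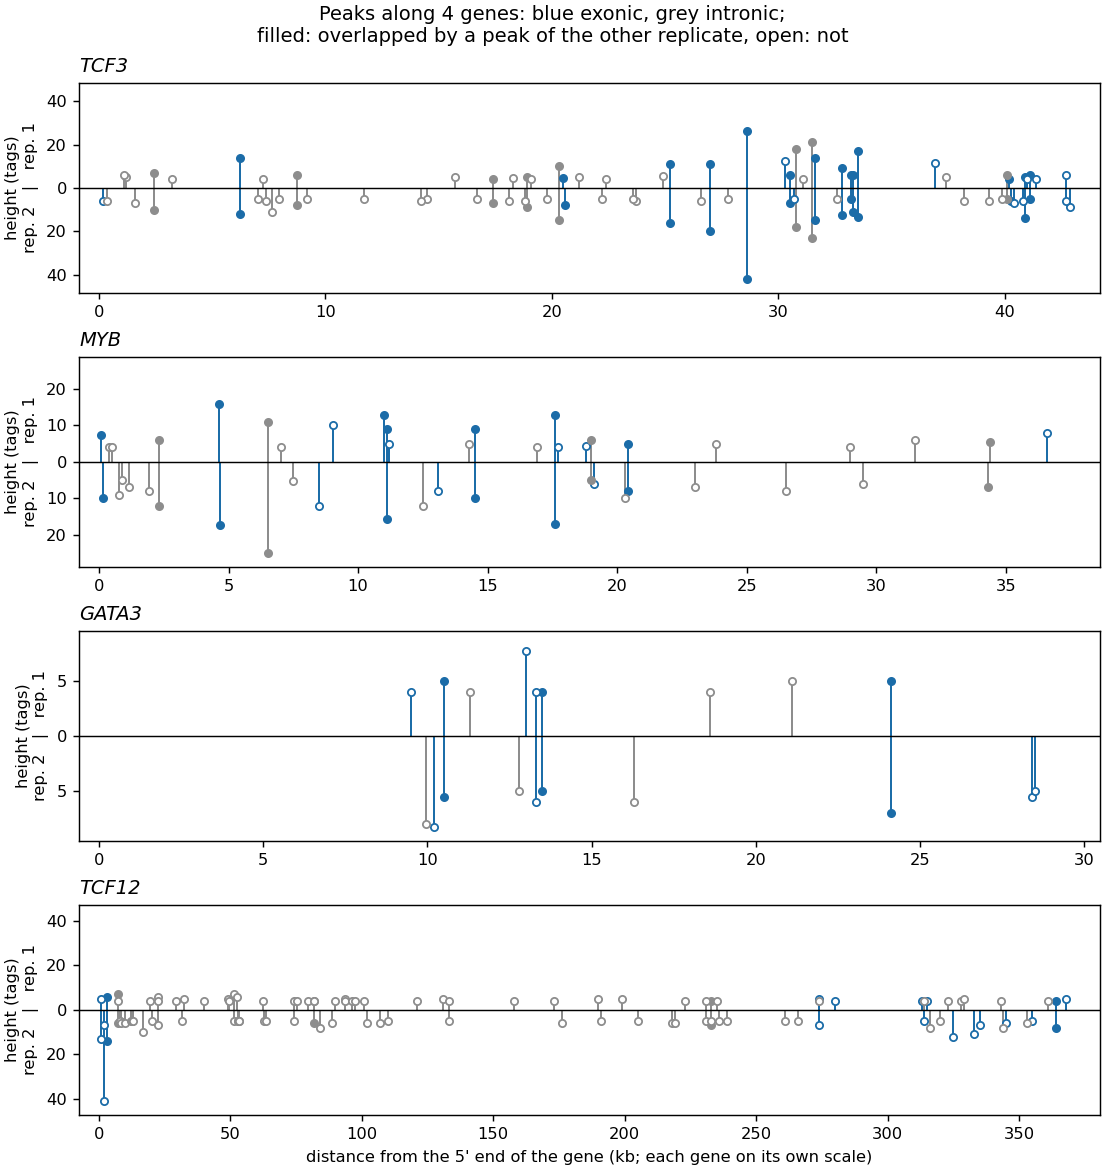
Peaks along TCF3, MYB, GATA3 and TCF12, with the distance from the 5′ end of the gene (kb) on the horizontal axis and the height (tags) on the vertical axis, replicate 1 upward and replicate 2 downward. Blue marks exonic and grey intronic peaks, and filled points overlap a peak of the other library. The tallest TCF3 stem stands at the same place in both, while the TCF12 stem of 41 tags near the gene start has no partner.

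NKX2-1 and TLX1, the homeobox genes, had no sense peak, and no peak of any class lay between the start and end of either gene in either list. Within 1000 nt of TLX1, outside the gene, replicate 2 had 1 peak, antisense to another gene. An absent peak does not show that an RNA is unbound, since the RNA levels of these genes were not analysed here.

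Over the 10 genes, CDS was the main region of 37 of 129 peaks in replicate 1 (28.7%, 21.6% to 37.0%) and of 40 of 147 in replicate 2 (27.2%, 20.7% to 34.9%). Among all sense peaks the shares were 19.9% and 25.6%. A difference between the replicates was not detectable at -1.47 percentage points (p = 0.790 by Fisher's exact test, two-sided). The test treats peaks as independent, but peaks of a single gene are not, and some peaks are the same sites in both lists. Introns held 62.8% and 64.6% of the peaks of the 10 genes, and TCF12 supplied 42 of 81 intronic peaks in replicate 1 and 43 of 95 in replicate 2. Without TCF12 the CDS shares were 40.5% and 34.8%. Peaks that reached 10 tags made up 12.4% and 19.7%, against 2.73% and 8.75% of all sense peaks. In replicate 1 they were all from TCF3 (11) and MYB (5), and in replicate 2 from TCF3 (14), MYB (9) and TCF12 (6). Of these tall peaks, 16 of 16 and 24 of 29 (82.8%) touched CDS. The shares among all sense peaks of that height, 84.6% and 85.3%, show that tall peaks at coding exons were general in these lists.

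Shared peaks made up 41 of 129 in replicate 1 (31.8%, 24.4% to 40.2%), against 16.6% of all sense peaks. TCF3 (22 of 39) and MYB (11 of 24) held most of them. TCF12 had 5 of 50 and GATA3 had 3 of 9, and no other gene of the set had any. Exonic peaks were shared in 26 of 48 cases (54.2%, 40.3% to 67.4%) and intronic peaks in 15 of 81 (18.5%, 11.6% to 28.3%). The difference was 35.6 percentage points (p = 3.81e-05 by Fisher's exact test, two-sided), with the caution that peaks of 1 gene are not independent of each other. Without TCF3 the shares were 41.4% and 11.5% (exact test, p = 0.00208), and without TCF12 they were 60.0% and 30.8% (exact test, p = 0.0129). The same order held over all genes, with 38.1% and 7.11%. With peaks of a p-value under 0.001 alone, 10 of 21 exonic peaks (47.6%) and 7 of 15 intronic ones (46.7%) were shared, and no difference was detectable (exact test, p = 1.00). Among replicate 1 peaks that reached 10 tags the order was not seen: 9 of 12 exonic and 4 of 4 intronic ones were shared, and each of these 4 had part of its length in CDS. Peaks touching CDS were shared in 30 of 46 cases (65.2%), and peaks wholly inside an intron in 9 of 73 (12.3%). Over all sense peaks of replicate 1 the shares were 46.8% and 2.91%, in the same order.

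**Figure D3:**
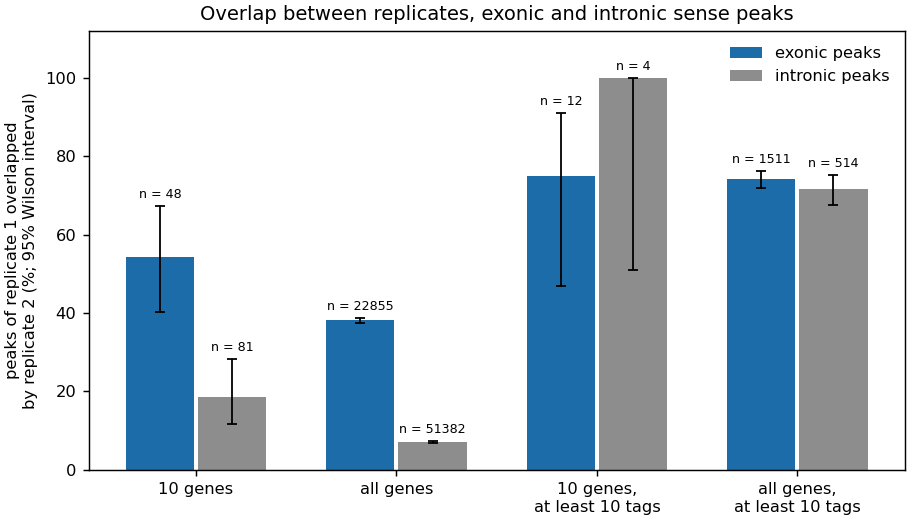
Share of replicate 1 peaks that overlap a peak of replicate 2 (%), for exonic (blue) and intronic (grey) sense peaks of the 10 genes and of all genes, over all heights and at 10 tags or more in replicate 1. Error bars are 95% Wilson intervals, which cover counting error only, and the gap of 54.2% against 18.5% in the 10 genes is not seen at 10 tags or more.

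The shared peaks formed 41 pairs, 22 in TCF3, 11 in MYB, 5 in TCF12 and 3 in GATA3, and 30 pairs had the same start and end. Replicate 2 was higher in 33 pairs, replicate 1 in 7, and 1 pair was equal. Because the list of replicate 2 begins at 5 tags, a pair with fewer than 5 tags in replicate 1 had to be higher in replicate 2. TCF3, TCF12 and GATA3 have such pairs, so the list minimum sets part of this direction and of their ratios. The median ratio of replicate 2 to replicate 1 was 1.39, close to the 1.40 of all 12358 shared sense peaks of replicate 1. By gene the median was 1.41 in TCF3, 1.31 in MYB, 1.75 in TCF12 and 1.25 in GATA3. Heights of 10 tags or more in both libraries were found in 13 pairs, 9 in TCF3 and 4 in MYB.

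**Figure D4:**
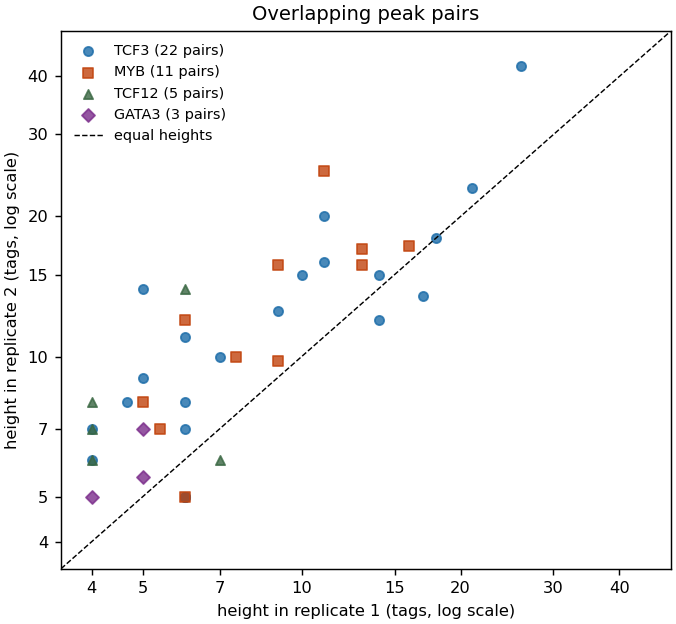
Height in replicate 2 against height in replicate 1 (tags, log scales) for the 41 overlapping pairs, coloured by gene, with the line of equal heights. Most points lie above the line, 33 of 41, and the pairs that reach 10 tags in both belong to TCF3 and MYB. Points under 5 tags in replicate 1 must lie above the line, since the list of replicate 2 begins at 5 tags.

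Partners and relatives of these factors were counted in the same way. Of 22 such genes, 16 had a sense peak in both replicates (43.4% of all protein-coding genes did), LMO3 had one in replicate 1 only, 4 (TAL2, GATA1, GATA2 and ID4) had none, and LDB2 could not be resolved. Heights of 10 tags or more in both libraries were reached by 4 of the 22, against 3.75% of all genes. Their counts are not set against genes of like length. RUNX1, a factor of the TAL1 complex, had 287 and 374 sense peaks, 21 and 20 of them exonic, and up to 13.7 and 23 tags. CBFA2T3 (ETO2), a corepressor of the complex, had 77 and 114 peaks, 9 and 13 of them exonic, and up to 18 and 24 tags. MYBL2, a relative of MYB in cycling cells, had 19 and 17 peaks, 12 and 11 of them exonic, and up to 15 and 26 tags. The coactivator EP300 had 24 and 23 peaks, 16 and 14 of them exonic, and up to 13 and 11 tags. Of 12 other factors activated in subtypes of T-ALL, 3 (MEF2C, SPI1 and MYC) had a peak in both replicates, against the same 43.4% of all genes, and 9 had none, among them TLX3, HOXA9 and HOXA10. None of the 12 reached 10 tags in both.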

How the data were processed

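Reads of the Jurkat iRIP libraries were aligned by the authors with TopHat2 (build GRCh38 in the submitters' processing notes) and limited to unique alignments. By the paper's description, peaks were called in each library separately, against reads placed at random within the gene. Those also found in an input library were dropped. Within each list, all peaks of 1 bin with the same height and strand carry the same p-value, whatever their gene. Thresholds set gene by gene are therefore not visible in the lists. The deposited height is a signal in tags, and the deposited p-value served here as a filter alone. Height times the number of 50 nt bins was whole (within 0.01) for every longer peak. For 99.7% of the peaks of 2 bins in each list, the p-value equalled the mean of the p-values of its bins (within 0.1%), so longer peaks can carry high p-values: of the peaks of the 10 genes that reached 10 tags, 1 of 16 and 2 of 29 had a p-value of 0.001 or more, all of them longer peaks. Region shares and identifiers are those of the authors, and the first region listed was taken on a tie.

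The lists hold no symbols. Identifiers were named by position and strand from a RefSeq table (GRCh38.p14), with a margin of 1000 nt, where a single gene held at least 80% of the CDS and UTR peaks, or all peaks where there were none of these. In all, 15420 of 20428 identifiers with a sense peak were named, 12526 of them as protein-coding genes. No strand was known for 4229 protein-coding genes, which were matched on either one; LMO2 took the strand of its peaks. Positions were read as half-open intervals. Wilson intervals (95%) cover counting error only, because PCR copies are not separate molecules. Depth per library is unknown.

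The genes, lists and tests were chosen with earlier results of these data known. Peaks named by rule are the highest of each gene in each replicate and up to 3 shared pairs with the highest lower value, and other positions were named after their values were seen. From the lists of partners and of other T-ALL factors, genes reaching 10 tags in both replicates are named by rule. Some markers of other blood cells are not reported here. Alternatives were minimum heights of 10 and 5 tags, a p-value under 0.001, exonic peaks only (also with 10 tags), any peak on the strand of the gene, weighting by length, overlap of 50% of a peak, either strand, touching peaks, the reverse overlap and each replicate alone. Leaving out TCF12 or TCF3 was chosen after seeing the data. Overlap and naming were tested on simulated data only, where 900 of 900 planted peaks were found and 399 of 399 genes were named correctly. In the real lists 15420 of 20428 identifiers with a sense peak were named, and whether these names are correct was not tested. Python 3.11.15, pandas 2.3.3, numpy 2.4.6, scipy 1.17.1 and matplotlib 3.10.9 were used.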

Additional observations from a re-analysis of the deposited data

Results flagged for a closer look

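Antisense peaks lay outside the comparisons and are listed here because those did not use them. The 10 genes had 11 antisense peaks in replicate 1, on 4 genes, with 4 to 5 tags, and 11 in replicate 2, on 6 genes, with 5 to 6 tags. These heights are at or close to the lowest of each list, 4 and 5 tags. None was shared between the libraries, and shares over all antisense peaks were not worked out. TCF12 held 7 and 5 of them by identifier, and its replicate 2 peak at 57295700 to 57295750 lay past the end of the gene.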

How the results depend on the processing

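No paired analysis was possible because the input libraries, which share replicate numbers with the iRIP libraries, were not analysed here. The 7 genes with a sense peak in both libraries became 2 at 10 tags or more, 4 at a p-value under 0.001 and 2 with exonic peaks of 10 tags or more, and leaving out either replicate gave 7 to 7. Peaks in replicates 1 and 2 numbered 16 and 29 at 10 tags or more, 36 and 54 at a p-value under 0.001, and 48 and 52 when exonic, and replicate 1 had 65 at 5 tags or more. Under these limits the CDS share was 75% and 51.7% (10 tags), 50% and 40.7% (p-value), 77.1% and 76.9% (exonic), and 41.5% in replicate 1 (5 tags). The CDS difference turned to 0.556 percentage points without TCF3 (exact test, p = 1.00), and its lowest p was 0.0539, at 5 tags or more (exact test). The shared part of replicate 1 was 81.2% at 10 tags or more, 52.3% at 5 tags or more, 47.2% at a p-value under 0.001 and 54.2% when exonic. The gap between exonic and intronic peaks turned to -25.0 percentage points at 10 tags or more (exact test, p = 0.529), with 12 and 4 peaks, and was 0.952 at a p-value under 0.001 (exact test, p = 1.00). Under its other alternatives it ran from 29.2 to 39.4, with exact p-values of 9.49e-06 to 0.0259. Stricter limits leave fewer peaks, and the causes of the changes were not tested. The unknown depth means that a minimum height may be stricter in one library than in the other.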
